A study of Homo sapiens with 21 samples.

Results

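TERT encodes the reverse transcriptase subunit of telomerase, the enzyme that adds telomeric repeats to chromosome ends. It is described here across a TGFβ time course of HMLE cells, an immortalized human mammary epithelial line. TERT is 1 of the 23201 genes in the table, and it was chosen by its measured level in these same libraries. Its values are therefore a description, and no test is given for them.

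In most differentiated human cells the TERT promoter is shut and telomerase is absent, whereas stem cells, germ cells and most tumors keep it on. Telomerase works as a particle: the TERT protein copies a template held by the telomerase RNA (TERC), and dyskerin (DKC1) with its partners NOP10, NHP2 and GAR1 holds that RNA in place. Shelterin coats the telomere, and the CST complex helps to fill in the lagging strand after telomerase has acted. HMLE cells are known to have been made with an introduced hTERT cDNA and the SV40 early region. The sample labels do not describe the construct, and TERT reads from a transgene and from the chromosomal gene cannot be told apart in these values.

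RNA sequencing covered 7 timepoints with 3 libraries each, 21 libraries in all. The d0 libraries came from untreated HMLE cells, and the d1, d4, d7, d10, d15 and d20 libraries from the same line after 1, 4, 7, 10, 15 and 20 days of TGFβ. The labels name no deleted gene and no other agent, and all groups share the immortalized background. The untreated cells were sampled only at the start, so days in culture and days of TGFβ cannot be told apart. Libraries of a timepoint are called a, b and c in the order of the columns, which carry no replicate numbers. Depth was even, from 18847917 to 22667754 reads per library.

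A single library stood apart from its mates. Over all genes tested, d7 library c differed from d7 libraries a and b by a root mean square of 0.472 and 0.457 on the log2 scale. Libraries a and b differed by 0.223, and the 18 pairs at the other 6 timepoints by 0.214 to 0.243. Values at d7 include library c unless stated otherwise, and those of TERT, MKI67 and CDKN1A are also given without it.

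The cells matched their label. KRT5, a keratin of basal epithelium, stood at 224349 ± 8441 (SD, n = 3) normalized reads at d0, and TP63, the basal transcription factor, at 4453 ± 177. The blood markers PTPRC and CD3E and the endothelial marker CDH5 had at most 1 read in any library. PECAM1, also an endothelial marker, had 41.3 ± 2.06 normalized reads at d0 and was lower on every treated day. The epithelial gene CDH1 (E-cadherin) had 7195 ± 216 at d0 and was lower at d10 and d20, and EPCAM was lower on every treated day. The 3 luminal markers KRT8, GATA3 and ESR1 stood at 7955, 279 and 39.0 normalized reads at d0, so KRT8 lay above TP63. KRT8 was called lower at d10 and ESR1 at d15, where 13.7% and 18.3% of all genes tested were called lower. At d15 KRT8 was higher by 0.50 on the log2 scale (limma adjusted p = 1.25e-10), under 1.5-fold. The mesenchymal genes VIM, FN1, ZEB1 and CDH2 rose on every treated day, with a median log2 difference of the 4 from 2.67 at d1 to 6.03 at d20.

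The stretch of the TERT promoter below is shown because it holds the E-box, the site read by MYC with MAX and by the MXD family, whose transcripts are followed further on. It is taken from RefSeq (GRCh38.p14, chr5:1295186-1295271, minus strand), upstream of the gene, and the capitals mark the E-box.

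TERT promoter, 86 bases: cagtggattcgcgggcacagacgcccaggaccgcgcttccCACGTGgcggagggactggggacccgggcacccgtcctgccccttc

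The motif CACGTG reads the same on both strands, and its first base lies 163 bases before the RefSeq start. Among 35116 promoters of the same length, 250 bases before the start, 6.34% held it. The 250 bases before the TERT start also held 2 GC boxes (GGGCGG on either strand), the letters read by SP1 and SP3, and 42.6% of promoters held at least 1. These matches are a description of the letters in the window. A transgene would not carry this promoter unless the construct included it.

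TERT was abundant in untreated cells. The 3 d0 libraries held 6824, 6959 and 7407 normalized reads, a mean of 7063 ± 305 (SD, n = 3). This placed TERT between rank 337 and rank 370 from the top of the 23201 genes. In d0 library a, 7668 reads came from TERT, or 374 RPM, the reads of a gene per 1000000 of the library (exact 95% binomial interval 365 to 382, which covers counting error only). The spread between d0 libraries was wider than this interval.

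At d1 the libraries held 14732, 13901 and 14929 normalized TERT reads, a mean 2.06-fold that of d0 and above every d0 library. At d4 they held 6411, 7269 and 7682, with a mean of 7121 ± 648, and the range covered that of d0. On this scale the higher level of d1 was thus not there at d4. At d7 libraries a and b held 4873 and 4949, below every d0 library, while library c held 10243, above every d0 library. The d7 mean of 6688 ± 3078 describes none of the 3 libraries. Without library c it was 4911 ± 53.5 (n = 2), a log2 ratio to d0 of -0.52, against 0.54 for library c alone.

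The later timepoints held both extremes. At d10 the libraries held 19307, 19111 and 18788 normalized TERT reads, the highest of the series, and a mean 2.7-fold that of d0. At d15 they held 1173, 1213 and 1219, the lowest, and a mean of 1202 ± 25.0. The d0 mean was 5.88-fold the d15 mean. At d20 they held 15364, 14960 and 13911, a mean of 14745 ± 750 and 2.09-fold that of d0. The mean thus went from the highest level to the lowest between d10 and d15, and was above every d0 library again at d20. Fewer cells with TERT and less TERT RNA per cell cannot be told apart in bulk libraries.

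**Figure D1:**
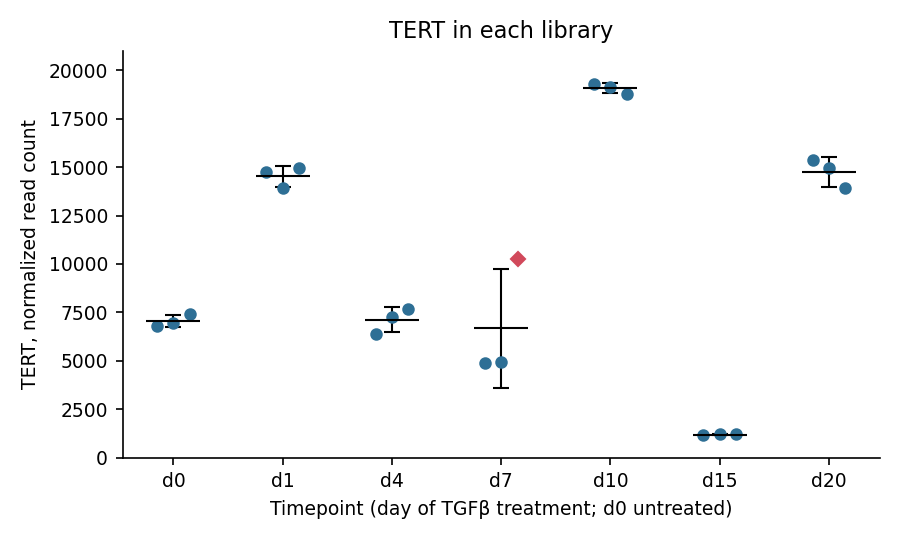
Normalized read count of TERT (y axis, starting at 0) in each of the 21 libraries by day of TGFβ treatment (x axis). Points are libraries, the diamond is d7 library c, long bars are means and short bars are 1 SD (n = 3). The d10 libraries lie between 18788 and 19307 and the d15 libraries between 1173 and 1219, with d7 library c at 10243 above its 2 mates.

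In order of mean level the timepoints ran d10, d20, d1, d4, d0, d7 and d15. The ranges of d20 and d1 overlapped, as did those of d4 and d0 and those of d0 and d7. The gaps between d10 and d20 (1.29-fold), between d1 and d4 (2.04-fold) and between d7 and d15 (5.57-fold) had no overlap. The d10 and d15 libraries thus lay apart from all others. The overlap of d0 and d7 comes from the split at d7, whose libraries a and b lay below every d0 and d4 library and whose library c lay above them all.

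The distance from the highest to the lowest timepoint mean of TERT was 3.99 on the log2 scale, or 15.9-fold. It was the 248th widest of 13343 genes with a mean of at least 10 normalized reads, against a median of 0.82 over all of them. The pattern of a maximum at d10 and a minimum at d15 was shared by 1528 of these genes, or 11.5%. At d15 TERT was still well above the floor, with 1150, 1341 and 1177 reads and 56.6 to 59.3 RPM. Its rank was then 3699 to 3835 of 23201, against 105 or 106 at d10.

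MKI67, which encodes the Ki-67 protein of cycling cells, was compared with TERT because its level follows proliferation. At d0 its libraries held 10626, 10739 and 10649 normalized reads. At d15 they held 3385, 3226 and 3261, all below every other library. MKI67 fell by 1.70 on the log2 scale at d15 (SE 0.118, limma adjusted p = 2.17e-11), where 18.3% of all genes tested were called lower. A call here means a limma adjusted p under 0.05 and a difference of at least 1.5-fold. At d4 the log2 difference was -0.54 (adjusted p = 3.40e-04), or 1.45-fold, short of the fold required on the deposited scale. Scaling to the same total moved the median log2 difference of all genes at d4 by -0.20, a shift that would take MKI67 past that fold. At d1 it was -0.15 (limma adjusted p = 0.29), against -0.34 (adjusted p = 0.0168) with libraries scaled to the same total and -0.37 (adjusted p = 6.53e-03) by quantiles. At d10 and d20 it was 0.080 and 0.18 (adjusted p = 0.558 and 0.181), and these differences turned negative when libraries were scaled to the same total or by quantiles.

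At d7 the MKI67 libraries repeated the split seen for TERT. Libraries a and b held 7210 and 6834 normalized reads, and library c held 11850. The log2 difference from d0 was -0.35 over the 3 libraries (limma adjusted p = 0.0119), and leaving out library a or b ended it (adjusted p = 0.082 and 0.11). Without library c it was -0.60 (adjusted p = 5.05e-18), past the fold required. In that fit the adjusted p for the differences at d1, d10 and d20 also fell under 0.05, at 1.44e-04, 0.0269 and 4.97e-06, with the differences themselves as above.

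CDKN1A, which encodes p21, an inhibitor of cyclin-dependent kinases, went the opposite way to TERT at d15 but not at d10. Its d0 libraries held 1937, 1831 and 1668 normalized reads, the lowest of the series. Its d15 libraries held 23140, 22797 and 23650. CDKN1A rose by 3.68 on the log2 scale at d15 (SE 0.324, limma adjusted p = 1.12e-09), where 21.1% of genes tested were called higher. It also rose at d4, by 1.59 (adjusted p = 1.72e-04; 18.1% of genes called higher), and at d20, by 1.68 (adjusted p = 1.24e-04; 13.4%). At d1 and d10 the differences were 0.74 and 0.60 (adjusted p = 0.0555 and 0.108).

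The d7 split was widest for CDKN1A. Libraries a and b held 22956 and 20637 normalized reads, close to d15, and library c held 4840, close to d4. Over the 3 libraries it rose by 2.87 (limma adjusted p = 1.09e-07), where 16.1% of genes were called higher, and without library c by 3.59. The spread of the d7 libraries enters the error of every other timepoint in the common fit. Without library c the differences at d1 and d10 passed the threshold (adjusted p = 5.30e-17 and 2.12e-14), and so did the d1 difference without library a or b of d7 (adjusted p = 0.0237 and 0.0358). KRT17, a stress-responsive keratin of basal cells, split the same way, with 55169 normalized reads in library c, the lowest of the 3, against 169632 in library b and a mean of 136342 ± 70675. Whether library c differed in cells, timing or handling was not tested.

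Of the basal keratins, KRT17 went the opposite way to TERT at both extremes. It fell from 39309 ± 2241 normalized reads at d0 to 13305 ± 807 at d10, when TERT was highest, and rose to 186677 ± 4734 at d15, when TERT was lowest. Its log2 differences were -1.56 and 2.25 (SE 0.251, limma adjusted p = 1.20e-05 and 4.92e-08). KRT14 rose by 0.71 at d15 and stood at -0.085 at d10 (adjusted p = 0.527). KRT5 fell by 1.15 at d10 and stood at -0.35 at d15 (adjusted p = 0.0359), short of the fold required. TP63 stayed within 1.5-fold of d0 on all 6 days. The part of cell makeup in the TERT level was not tested.

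**Figure D2:**
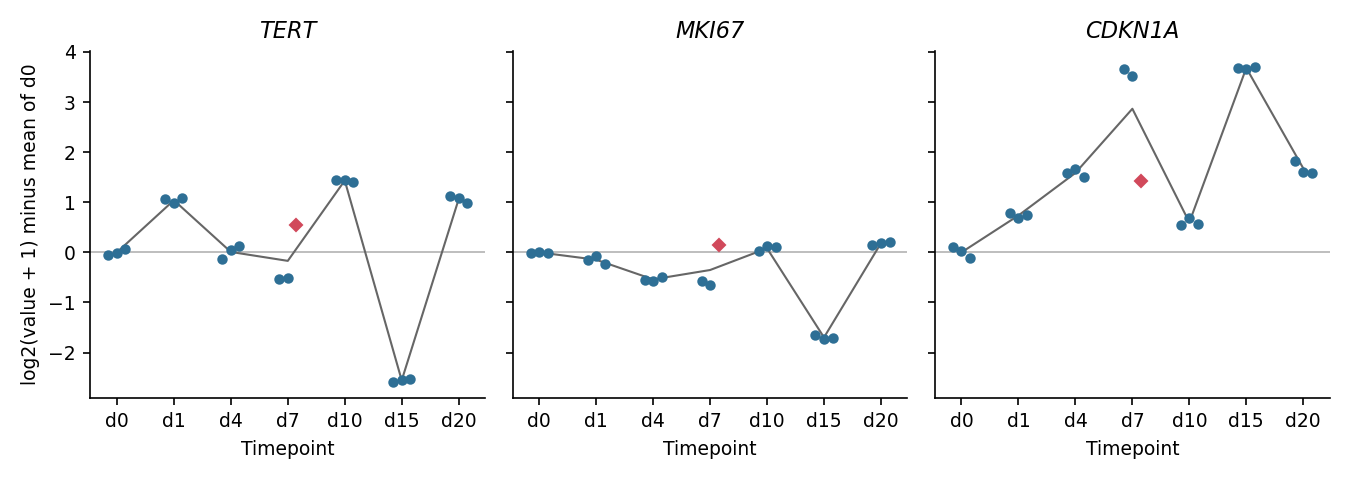
Log2(normalized read count + 1) minus the d0 mean (y axis) by timepoint (x axis) for TERT, MKI67 and CDKN1A. Points are libraries, diamonds are d7 library c, and lines join the means. At d15 TERT and MKI67 lie at -2.55 and -1.70 and CDKN1A at 3.68, and at d7 library c lies above its mates for TERT and MKI67 and below them for CDKN1A.

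TERT did not follow MKI67 in proportion. The ratio of normalized TERT reads to normalized MKI67 reads was 0.662 ± 0.029 at d0 (SD, n = 3). It was 1.51 ± 0.139 on d1, 0.969 ± 0.0758 on d4 and 0.755 ± 0.0979 on d7. On d10 it was 1.69 ± 0.0795, then 0.365 ± 0.0164 on d15 and 1.22 ± 0.0826 on d20. No d1, d4, d10 or d20 library had a ratio as low as any d0 library. The MKI67 log2 differences from d0 on these days were -0.15, -0.54, 0.080 and 0.18 as deposited. At d1 it was -0.34 scaled to the same total and -0.37 by quantiles. At d15 the ratio was below that of every other timepoint, so TERT was lower by more than MKI67 was. At d7 the ratios ran from 0.676 to 0.864, a narrow range beside the 2.09-fold gap in TERT itself between library c and its mates.

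Over the 7 timepoint means on the log2 scale, TERT had a Pearson r of 0.94 with MKI67 (Spearman rho 0.79) and of -0.74 with CDKN1A (rho -0.54). The points share library and scaling, and the values are a description with no p. Much of the size came from d15: over the other 6 means r was 0.68 with MKI67 and -0.36 with CDKN1A. Within timepoints, over the 21 deviations from the timepoint means, r was 0.91 with MKI67 and -0.95 with CDKN1A. These came from d7, since over the 18 libraries of the other timepoints r was -0.22 and 0.01.

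**Figure D3:**
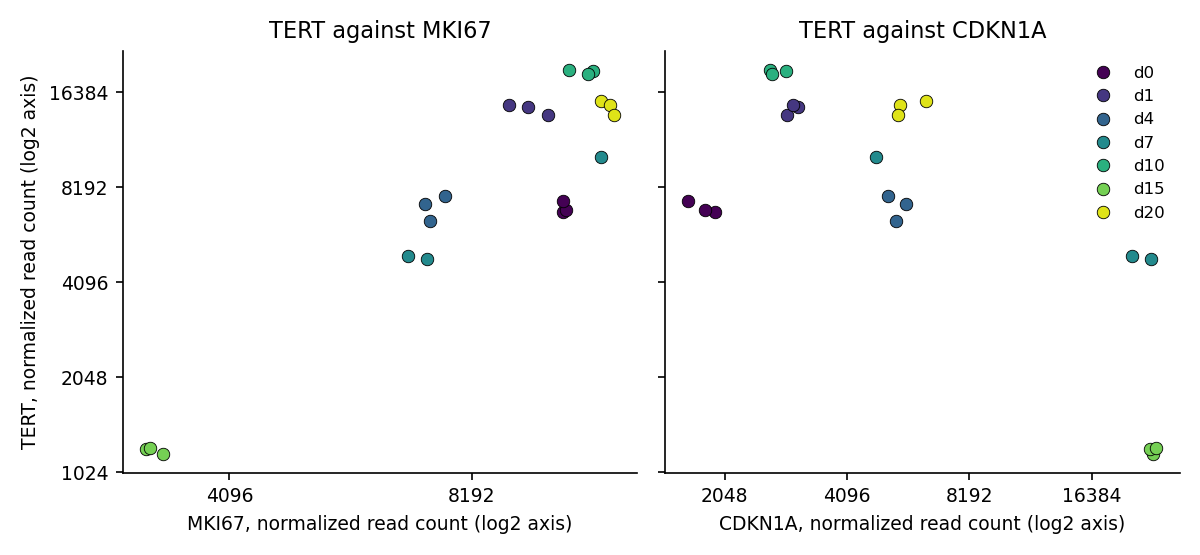
Normalized read count of TERT (y axis, log2) against MKI67 (left x axis, log2) and CDKN1A (right x axis, log2), with a point for each of the 21 libraries coloured by timepoint. The 3 d15 libraries lie alone at TERT levels of 1173 to 1219, and the d7 points are split, with library c at 10243 and its mates at 4873 and 4949.

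The column totals were compared next, since they differ between libraries. Recovered reads per library had an r of 0.21 with TERT over the 7 means (rho 0.14), and totals of the normalized values an r of 0.27 (rho 0.86), so the order of the normalized totals was near that of TERT while their sizes were not. As a share of the library, TERT ran from 56.6 RPM in d15 library a to 894 RPM in d10 library a. The normalized totals were lowest at d0, so scaling every library to the same total moved the median log2 difference of all genes by -0.23 to -0.16 on treated days. On that scale the TERT log2 ratios to d0 were 0.85 (d1), -0.19 (d4), 1.21 (d10), -2.71 (d15) and 0.86 (d20), against 1.04, 0.0084, 1.43, -2.55 and 1.06 as deposited. The sign at d4 thus depended on the scaling. With the deposited values the d4 and d0 libraries overlapped, but as a share of the library every d4 library (301, 344 and 365 RPM) lay below every d0 library (374, 378 and 397 RPM).

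Reference genes gave a further yardstick. Of 8 genes often used to scale RNA levels, 2 were called lower at d15, HPRT1 and PPIA. ACTB, the cytoskeletal actin, rose by 1.33 at d1, 1.15 at d10 and 1.03 at d20 on the log2 scale. Relative to ACTB alone, the TERT ratio to d0 was -0.29 at d1, 0.29 at d10 and 0.03 at d20. Relative to the other 7 genes it was positive on these 3 days. At d15 it was negative relative to each of the 8, and closest to 0 with HPRT1, at -1.65, which itself fell by 0.90 (limma adjusted p = 2.76e-13).

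The protein partners of TERT in the telomerase particle were lower most often at d15. Of 14 genes of the particle and its assembly, 13 were tested. None was called higher on any treated day by limma or by edgeR on the recovered reads, and limma called 2 lower at d4, 1 at d7, 5 at d15 and 0 on the other days. Over all genes tested the share called lower was 8.76% for d1, 13.7% for d4 and likewise 13.7% for d10, 8.95% for d7 and 9.96% for d20. On the deposited scale the d4 and d7 counts were thus near the background, and d15, with 5 of 13 against 18.3%, was above it. The share higher was 11.6% to 21.1%. With a library left out the d10 count higher was 2 (without d0 library c or d10 library b), and the d4 count lower was 1 (without d0 library b or d4 library c). The median log2 difference of the 13 genes was -0.51 at d15 and 0.27 at d10, against 0.01 and 0.03 over all genes tested. At d10 the differences were small but went the same way: 11 of the 13 were higher and 0 lower at an unadjusted limma p under 0.05, with none past 1.5-fold. Over all genes tested, 38.1% were higher and 32% lower on d10 by that measure. At d1 the same counts were 6 and 0, and at d20 they were 4 and 2. On d4, 3 were higher and 9 lower by that measure, on d7 2 and 10, and on d15 3 and 10. The shares of all genes were 32.9% higher and 30.7% lower on d1, 37.8% and 36.3% on d4, 35.7% and 34% on d7, 39.9% and 37.9% on d15, and 33.8% and 32% on d20, so any list holds many such genes.

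The 5 lower at d15 were GAR1 and NOP10, which sit on the telomerase RNA, WRAP53, which brings the particle to Cajal bodies, and RUVBL1 and RUVBL2, ATPases of its assembly. RUVBL1 fell from 2708 to 1136 normalized reads (by 1.25 on the log2 scale, SE 0.0572, limma adjusted p = 1.95e-14), and was also lower at d4 and d7. WRAP53 fell by 1.25, RUVBL2 by 0.93, GAR1 by 0.92 and NOP10 by 0.70. DKC1, the core protein, had log2 differences of 0.58 at d10 and -0.41 at d15, and PINX1, an inhibitor of telomerase, of 0.58 and -0.44. Both lay just under the fold required at d10. Without d7 library c, 3 of 13 were lower at d7 (DKC1, RUVBL1 and RUVBL2), where 11% of all genes were called lower in that fit. With all libraries scaled to the same total, DKC1, NAF1, WRAP53, RUVBL2 and PINX1 were also lower at d7, against 17.3% of all genes. SHQ1 and RUVBL2 were also lower at d4 (22.4% of all genes), and NAF1, SHQ1 and PINX1 at d15 (25%). By quantiles DKC1, NAF1 and RUVBL2 were also lower at d7 (13%), RUVBL2 at d4 (16.8%) and NAF1 at d15 (20.7%).

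Levels were compared between genes per kilobase of the longest coding transcript. The TERT level per kilobase was 2.23 times that of DKC1 at d0, 4.02 times at d10 and 0.504 times at d15. Against NOP10 the same ratio was 0.602, 1.26 and 0.166. Against GAR1 it was 3.74, 7.08 and 1.21, so TERT was above GAR1 on each of these days. TERC, the RNA template, could not be followed: it had at most 3 reads in any library and 24 reads over all 21, at the floor of 3 reads.

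Shelterin did not pass the fold required on the deposited scale. None of its 6 genes was called in either direction on any day by limma or by edgeR, and their median log2 difference was -0.21 at d1, -0.12 at d15 and -0.01 at d20. At d15, 21.1% of all genes tested were higher and 18.3% lower, about 1 gene each way in a list of 6. At an unadjusted limma p under 0.05, 2 of the 6 were higher and 4 lower on d1, and 1 was higher and 3 lower on d15, beside the shares of all genes given above for that measure. TERF1, which binds the duplex repeat, had the lowest single value, -0.56 at d15, and TERF2IP the highest, 0.48 at d15. Scaled to the same total, TERF1 was called lower at d4 (-0.72) and d15 (-0.71) and POT1 at d10 (-0.66). The shares of all genes lower on that scale were 22.4% on d4, 25% on d15 and 21.3% on d10. By quantiles TERF1 was called lower at d4 (-0.59), against 16.8% of all genes. At d15 leaving out a library on the deposited scale brought the count called lower to at most 1 of 6. On that day the d0 mean of TERT was 5.88-fold the d15 mean.

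Of 10 genes for CST and telomere replication, 9 were tested, and TEN1 had 0 reads in all 21 libraries. CTC1, the large CST subunit, fell at d4, d7, d10 and d15, and at d15 by 1.14 on the log2 scale (SE 0.114, limma adjusted p = 8.50e-09). STN1, listed under its older symbol OBFC1, went the other way and rose by 0.91 at d4 (adjusted p = 1.06e-14) and 0.70 at d15. BLM, a helicase active in replication, fell by 2.30 at d15 and 1.03 at d4. DCLRE1B, the Apollo nuclease of the telomere end, rose by 0.59 at d10 (adjusted p = 3.46e-07) and fell by 0.98 at d15. RTEL1, a helicase that opens telomere loops, rose by 0.70 at d10 from 42.0 to 68.4 normalized reads. Scaled to the same total, the d10 calls of RTEL1 (0.47) and DCLRE1B (0.36) and the d15 call of STN1 (0.54) were lost. By quantiles the d10 calls of DCLRE1B (0.52) and CTC1 (-0.54) were lost.

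Over all 28 telomere genes tested, limma called 1 higher and 4 lower at d4, 2 lower at d7, 2 higher and 1 lower at d10, and 1 higher and 8 lower at d15. It called 0 either way on d1 and d20, where 8.76% and 9.96% of all genes tested were lower and 11.6% and 13.4% higher. Over all genes tested the share lower was 13.7% on d4 and d10, 8.95% on d7 and 18.3% on d15, so the d4 and d7 counts lower were near the background. The share higher was 18.1% on d4, 13.9% on d10 and 21.1% on d15. Scaled to the same total, 8 were lower at d4, 8 at d7 and 13 at d15, where 22.4%, 17.3% and 25% of all genes were lower on that scale. The counts near the fold limit moved with single libraries. The count higher at d10 was 0 without d0 library a, 1 without d0 library b or d10 library c, and 4 without d0 library c or d10 library b. The count lower at d10 was 0 without library a of d0 or of d10. The count lower at d7 was 5 without library c and 1 without library b. The count lower at d1 was 1 without d0 library b or c or d1 library b, and that at d20 was 1 without d0 library c. At an unadjusted limma p under 0.05, 11 of the 28 were higher and 6 lower on d1, and 9 were higher and 6 lower on d20. In edgeR 0 were higher and 1 lower at d1, and 0 either way at d20. The d15 count of 8 was 8 or 9 with any library left out.

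**Figure D4:**
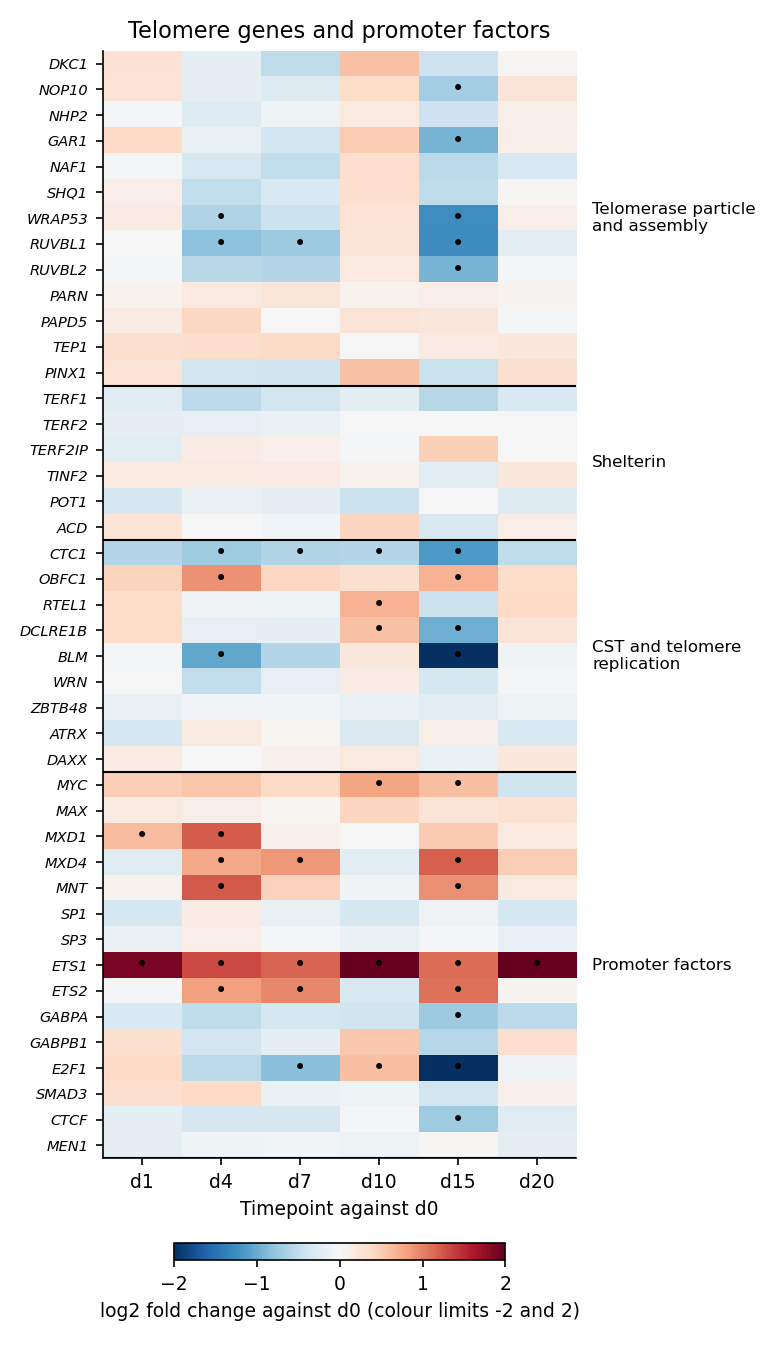
Log2 difference from d0 (colour, limits -2 and 2) for 28 telomere genes and 15 promoter factors (rows) on 6 treated days (columns), with dots on values called by limma. At d15 the telomerase particle holds 5 calls, all lower, shelterin holds none, and ETS1 is called higher on all 6 days.

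Of 16 transcription factors described as acting on the TERT promoter, 15 were tested, and WT1 had 0 reads in all 21 libraries. Limma called 2 higher at d1, 5 at d4, 3 each on d7 and d10, 5 at d15 and 1 on d20. It called 1 lower at d7, 3 at d15 and 0 on the other days. Over all genes tested the share higher was 11.6% on d1, 18.1% on d4, 16.1% on d7, 13.9% on d10, 21.1% on d15 and 13.4% on d20. The share lower was 8.95% on d7 and 18.3% on d15. The counts lower, and the count higher on d1, were thus near those shares of 15 genes. On the days without a lower call, 6 factors on d1, 5 on d4, 6 on d10 and 5 on d20 were lower at an unadjusted limma p under 0.05, and edgeR called 0. ETS1, of the ETS family, rose on all 6 days, from 2292 normalized reads at d0 to 8564 at d1 and 10820 at d10. Its log2 difference was 1.90 at d1 and 2.24 at d10 (SE 0.12, limma adjusted p = 5.43e-13 at d10). It was still 1.12 at d15, when TERT was lowest. ETS2, another member, rose at d4, d7 and d15, by 1.10 at d15.

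Among the E-box readers, MYC, MXD4 and MNT were called higher at d15, and MYC at d10. MYC rose at d10 by 0.80 (SE 0.232, limma adjusted p = 4.76e-03) and at d15 by 0.60 (adjusted p = 0.0236), the days when TERT was highest and lowest. Both MYC calls were lost on other scales, at 0.57 and 0.44 scaled to the same total and at 0.58 and 0.56 by quantiles. Without d7 library c it was also called higher at d7, by 0.90. MAX, its partner, was not called on any day. MXD4 and MNT, which pair with MAX and repress, rose at d4 and d15, MXD4 by 1.20 and MNT by 0.91 at d15, and MXD4 also at d7. MXD1 rose at d1 and d4, by 0.63 and 1.21. Scaled to the same total, the d1 call of MXD1 (0.44) and the d4 call of MXD4 (0.56) were lost. The count higher at d1 was 1 without d0 library c, and 1 factor was lower at d4 without d4 library c. In edgeR 2 factors were called higher at d1 and 5 at d4, and 4 higher and 4 lower at d15.

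E2F1, which drives entry into S phase, had the widest difference of the 15 factors. It fell by 2.92 at d15 (SE 0.123, limma adjusted p = 4.76e-15), from 479 to 63.4 normalized reads, and by 0.83 at d7. At d10 it rose by 0.60, a call lost with libraries scaled to the same total (0.37) or by quantiles (0.53). GABPA and CTCF fell at d15 by 0.73 and 0.71. SP1 and SP3, readers of the GC boxes, were not called on any day, nor was SMAD3, a transducer of TGFβ signals.

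The cell-cycle genes gave the background for these levels. Of 10 proliferation genes, MKI67 among them, 8 were called lower at d4, all 10 at d15, 3 at d7, 1 at d1 and 0 on d10 and d20, and none was called higher by limma or by edgeR. Over all genes tested 13.7% were lower on d4, 18.3% on d15, 8.95% on d7 and 8.76% on d1. On d10 and d20 the shares lower were 13.7% and 9.96%. The share higher ran from 11.6% on d1 to 21.1% on d15 and was 13.9% on d10. On d1 and d10 a count of 0 higher in 10 genes was thus near the background. At an unadjusted limma p under 0.05, 8 were lower at d1, 4 were lower at d10, and 1 was higher and 3 were lower at d20. Without d7 library c the d7 count was 6, and all 10 were lower at d7 at an unadjusted p under 0.05 in the fit with it. MCM2, of the replicative helicase, fell by 1.25 at d4 and by 2.59 at d15 (limma adjusted p = 3.77e-19). Of the 10, 8 were thus lower at d4, when the TERT log2 ratio to d0 was 0.0084 as deposited and -0.19 scaled to the same total.

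Other CDK inhibitors moved at d10 and d15 too. CDKN1C (p57) rose by 2.48 at d15 and fell by 2.57 at d10, to 9.48 normalized reads. CDKN2B (p15), a known TGFβ target, rose by 1.04 at d15 and fell by 0.88 at d10. MDM2, an E3 ligase, rose by 1.18 at d15 (SE 0.279, limma adjusted p = 6.51e-04).

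The genes next to TERT on chromosome 5 had other profiles. In the RefSeq order of GRCh38.p14, SLC6A18 and SLC6A19 come before TERT by coordinate and CLPTM1L and SLC6A3 after it. SLC6A18, SLC6A19 and SLC6A3, all membrane transporters, had 0 reads in all 21 libraries, which allows up to 3 in a library. CLPTM1L had 1973 ± 56.4 normalized reads at d0 and 2367 ± 64.0 at d15, and it was not called on any day, its widest log2 difference being 0.42 at d10. SLC12A7, a potassium and chloride cotransporter, fell at d1 and d10 by 0.75 and 0.87 and rose at d15 by 1.18 (limma adjusted p = 7.04e-09). LPCAT1 rose at d4, d7, d10 and d15.

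The genes whose profile was most like that of TERT were found by Pearson r over the 21 libraries on the log2 scale, among 11489 genes with a mean of at least 50 normalized reads. The libraries of a timepoint are not independent points, and the ranking is a description. The 5 highest were WDR62 (r = 0.992), NIT2 (0.988), TUBA1B (0.987), TUBB (0.986) and TCF19 (0.986). WDR62 is a spindle pole protein, TUBA1B and TUBB are tubulins, and NIT2 is an amidase. TUBA1B and TUBB have close paralogs and pseudogenes, so the sharing of reads between copies is uncertain.

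The 5 lowest were RPL12 (-0.98), NCRNA00219 (-0.98), QARS (-0.97), EEF2 (-0.97) and C6orf48 (-0.97). RPL12 is a ribosomal protein with pseudogenes, EEF2 is a translation elongation factor and QARS is the glutaminyl-tRNA synthetase. NCRNA00219 went from 416 ± 18.8 normalized reads at d0 to 1244 ± 34.6 at d15. The same 10 genes took the ends of the ranking without d7 library c. An r over 0.9 was not rare: 550 genes (4.79%) had it, and 168 (1.46%) had an r under -0.9.

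Likeness in shape was not likeness in size. WDR62 went from 1242 ± 20.6 normalized reads at d10 to 347 ± 13.6 at d15, a span of 1.84 on the log2 scale, and NIT2 spanned 1.09. TUBA1B, with the widest span of the 5 highest, covered 2.26, against 3.99 for TERT. Among the telomere genes DCLRE1B had an r of 0.98 with TERT and NOP10 of 0.96, while TERF2IP had -0.89. DKC1 had an r of 0.76 and E2F1 of 0.96.

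**Figure D5:**
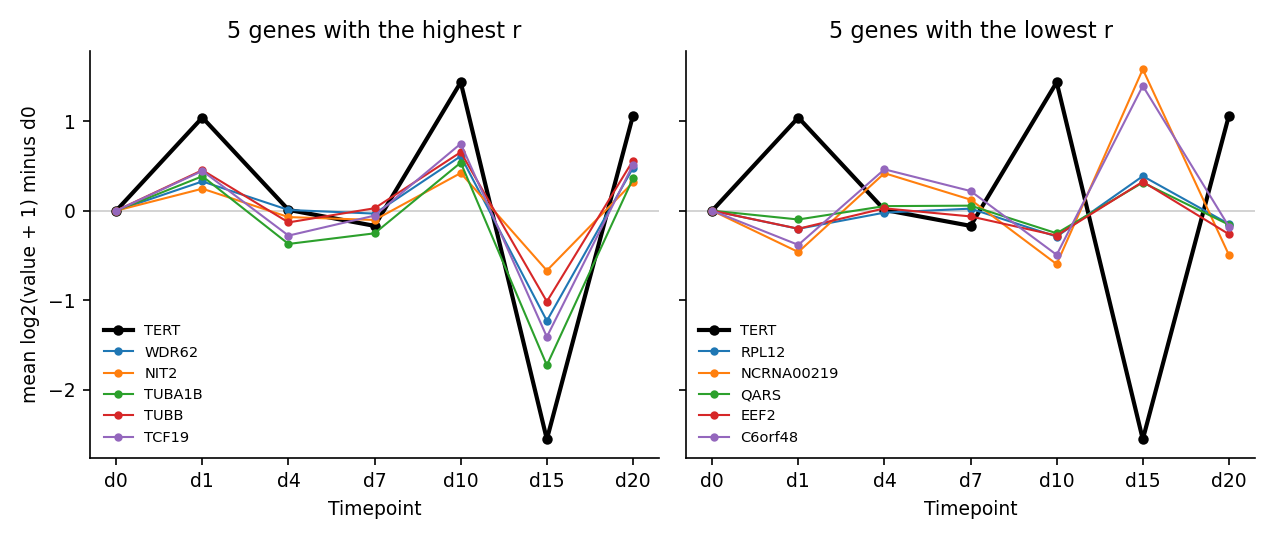
Mean log2(normalized read count + 1) minus d0 (y axis) by timepoint (x axis) for TERT (black) and the 5 genes with the highest (left) and the lowest (right) Pearson r with it over 21 libraries. The 5 genes on the left peak at d10 and are lowest at d15 with smaller spans than TERT, such as 1.84 for WDR62 against 3.99.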

How the data were processed

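The submitters' processing notes name STAR 2.7, Salmon 1.4 and the hg19 build, with no order or role. The deposited table holds a normalized signal per gene and library, made by the authors by dividing whole reads by a size factor for each library. Replicates were not pooled. The study describes the libraries of a timepoint as biological triplicates. Whole reads were recovered from the smallest step of each column, with 100% of values whole within 0.006 in every column.

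The member and the gene lists were chosen with earlier results of these data known. Values were tested on log2(value + 1) for the 13343 genes with a mean of at least 10, a filter that TERT passed. A limma model (limma 3.58.1, R 4.3.3) with 7 timepoint means and 14 residual degrees of freedom gave differences from d0, with Benjamini-Hochberg adjustment per day. Calls needed an adjusted p under 0.05 with a difference of 1.5-fold or more. edgeR 4.0.16 on recovered reads was an alternative, and both were tested on simulated data. Fold changes of low genes are understated by the pseudocount of 1. Exact (Clopper-Pearson) intervals and the floor of 3 reads cover counting error only. Named genes were TERT, members of the lists, and the 5 genes at each end of the ranking by Pearson r. KRT17 values by library were looked at after the split at d7 was seen.

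Lists covered the telomerase particle, shelterin, CST and telomere replication, TERT promoter factors, proliferation, CDK inhibitors, chromosomal neighbours, reference genes and cell type markers. Lengths are those of the longest GENCODE coding transcript. The promoter and the gene order are from RefSeq (GRCh38.p14), not the build of the files, and no coordinates were moved between builds. Alternatives were other scalings, pseudocounts, filters and folds, fits of 2 timepoints, edgeR, and leaving out each library. Some members of the lists are not reported here. The design provides no untreated cells beyond d0.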

Additional observations from a re-analysis of the deposited data

How the results depend on the processing

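Of 1142 values recomputed for 44 results, 1027 were counted as the same. For MKI67 and CDKN1A this meant the same direction and the same side of the adjusted p threshold, whatever the fold. MKI67 at d7 without library c is thus among the 1027, although it went from no call (-0.35) to a call of lower (-0.60). For correlations it meant a move within 0.1 in r. The TERT ratios had to move by less than the spread between libraries, and counts by no more than 1.5 times. No paired analysis was possible because replicate numbers are missing from the column names. The cause of each change below was not tested unless the alternative itself changes the fold required or the genes in the fit.

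The TERT log2 ratios to d0 moved by more than the library spread with the scaling. Scaled to the same total they were 0.85 (d1), -0.19 (d4), 1.21 (d10), -2.71 (d15) and 0.86 (d20). By quantiles they were 0.84, -0.13, 1.25, -2.64 and 0.93. Relative to 8 reference genes, chosen after seeing the data, they were 0.87 (d1), 1.21 (d10), -2.44 (d15) and 0.87 (d20). Spearman rho in place of Pearson r was 0.79 for MKI67 and -0.54 for CDKN1A. With each timepoint left out, r ran from 0.68 to 0.98 for MKI67 and from -0.90 to -0.36 for CDKN1A.

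MKI67 differences reversed under the same total at d10 (-0.15, limma adjusted p = 0.281) and d20 (-0.016, adjusted p = 0.911), and by quantiles at d10 (-0.19, adjusted p = 0.128) and d20 (-0.027, adjusted p = 0.841). The d1 difference passed the threshold under both, at -0.34 and -0.37. With only 2 timepoints in the fit, MKI67 passed at d1 (-0.15), d10 (0.080) and d20 (0.18) and no longer passed at d7 (-0.35), and CDKN1A passed at d1 (0.74) and d10 (0.60). With each library left out, MKI67 ran from -0.19 to -0.11 at d1, -0.60 to -0.21 at d7, 0.060 to 0.11 at d10 and 0.17 to 0.20 at d20, and CDKN1A from 0.68 to 0.79 at d1 and 0.54 to 0.65 at d10.

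Telomere genes called moved as follows. At no minimum fold the counts higher were 11 (d1), 6 (d4), 4 (d7), 18 (d10), 5 (d15) and 8 (d20), and the counts lower 6, 16, 17, 4, 19 and 6. At 2-fold the counts higher were 0 at d4, d10 and d15, and the counts lower 1 (d4), 0 (d7), 0 (d10) and 4 (d15). The shares of all genes called were not computed at no minimum fold or at 2-fold. These counts therefore cannot be set against a background. Scaled to the same total, 0 were higher at d10 and d15, and 1 (d1), 8 (d4), 8 (d7), 2 (d10), 13 (d15) and 1 (d20) were lower. On that scale 9.02% (d10) and 16.3% (d15) of all genes were higher. The shares lower were 15.4% (d1), 22.4% (d4), 17.3% (d7), 21.3% (d10), 25% (d15) and 17.3% (d20). By quantiles 1 was higher and 0 lower at d10, and 6 were lower at d7. There 12.8% of all genes were higher and 13% lower at d10, and 13% were lower at d7. With a pseudocount of 10, 1 was higher and 0 lower at d10, and 1 was lower at d7. In edgeR 1 was higher at d10 and 1 lower at d1. With each library left out, the count higher at d10 ran from 0 to 4, and the counts lower ran from 0 to 1 at d1, d10 and d20 and from 1 to 5 at d7.

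For the promoter factors, at no minimum fold the counts higher were 6 (d1), 10 (d4), 5 (d10) and 5 (d20), and the counts lower 6 (d1), 5 (d4), 4 (d7), 6 (d10), 5 (d15) and 5 (d20). At 2-fold the counts higher were 1 (d1), 3 (d4), 1 (d7), 1 (d10) and 3 (d15), and the counts lower 0 (d7) and 1 (d15). Here too the shares of all genes at these folds were not computed, so the counts have no background beside them. Scaled to the same total, 1 was higher at d1 and d10, and 2 (d4), 1 (d10) and 2 (d20) were lower. On that scale 8.76% (d1) and 9.02% (d10) of all genes were higher, and 22.4% (d4), 21.3% (d10) and 17.3% (d20) lower. By quantiles 1 was higher at d10 and 1 lower at d4 and d20. There the shares of all genes were 12.8% higher at d10, and 16.8% and 11.2% lower at d4 and d20. With each library left out, the count higher at d1 ran from 1 to 2 and the count lower at d4 from 0 to 1. TERC, TEN1 and WT1 were at or under 3 reads in every library, so no difference could be seen for them, and the cause was not tested.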
